A study of Rattus norvegicus with 16 samples.

Results

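The culture response of the newborn rat organ of Corti, the sensory epithelium of the cochlea, was measured by setting tissue kept for 24 h in normoxic culture against freshly dissected, native tissue. The samples were chosen by their titles: 2 arrays of native organ of Corti and 2 of organ of Corti after cultivation in normoxia, which make 4 of the 16 arrays of the series. The series also covers the modiolus, which holds the spiral ganglion neurons, and the stria vascularis, the ion-pumping epithelium of the lateral wall, each native, after normoxic culture and after culture with a hypoxic period. The arrays were of the Affymetrix Rat Neurobiology U34 design, whose genes were selected for work on the nervous system.

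All animals were newborn rats. Strain, sex and genotype are not given in the sources used here. Each native array held total RNA of a pool of 12 cochleae from 6 animals, taken directly after dissection in a cooled saline glucose buffer. Each normoxic array held a pool of 12 cochleae whose fragments had been cultured for 24 h at 37 °C. The medium was DMEM/F12 with 10% fetal calf serum, 0.6% glucose and, per ml, 60 µg of putrescine, 100 µg of transferrin and 25 µg of insulin, so that serum and these supplements are part of the condition. It also held hepes, bicarbonate, l-glutamine and the antibiotic ciprofloxacin. The region was lysed in tubes of 3 cochleae. The labels number the arrays of a condition as repeats without saying whether these were separate pools. The p-values measure only the spread between repeat arrays, which may be technical. That spread was estimated over all regions and conditions of the series with repeats, not from the organ of Corti arrays alone. As tissue was pooled, fewer cells of a type and less RNA per cell cannot be told apart in any value given here.

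The organ of Corti holds inner and outer hair cells, which turn sound into electrical signals, and supporting cells, which surround them and clear potassium and glutamate. The peripheral fibres of the spiral ganglion neurons end on the hair cells and reach them through openings beside Schwann and satellite glia. Dissection of the organ of Corti from the modiolus cuts these fibres, in native and cultured tissue alike. Whether some cell bodies stayed with the organ of Corti cannot be told from these arrays. The newborn rat epithelium is still immature, as hearing begins later in postnatal life.

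The array gave little on the cells that define the tissue. Of 12 hair cell markers only Chrna9, a subunit of the nicotinic receptor of hair cells, was measured. Its signal was 860.2 and 858 in the native organ of Corti, 209 in native modiolus and 398 in native stria vascularis. Myo7a, Atoh1, Pou4f3 and Otof were not among the probe sets named here, so that the hair cell label rests on one gene. Of 10 supporting cell markers, the glutamate transporter Slc1a3 was measured, with 23021 and 24634 in the native organ of Corti against 12059 and 9227 in the native modiolus and stria vascularis. The 3 measured stria vascularis markers summed to 2643 and 1475 in the native organ of Corti and to 53611 in native stria vascularis.

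Markers of neurons and glia were detected in the native tissue. The 7 measured of 8 neuronal markers summed to 95048 and 90549 in the native organ of Corti, against 90112 in the native modiolus, and to 45497 and 39131 after culture. The 4 measured of 7 Schwann cell and myelin markers summed to 74215 and 82592 in native tissue and to 17960 and 19635 after culture. This sum was as high in native stria vascularis, at 82636, where S100b made up 69486 of it and Mbp 369.5, and S100b made up 50647 and 55291 in the native organ of Corti, so that the sum is not particular to Schwann cells. No array of one condition reached the other in either sum. Of 7 macrophage markers only Itgam was measured, and it was not above background in either condition. The fibroblast marker Pdgfra, 1 of 5, gave 13367 and 12962 in native tissue and 23012 and 15328 after culture. None of the 4 markers of blood vessels and blood was measured.

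**Figure D1:**
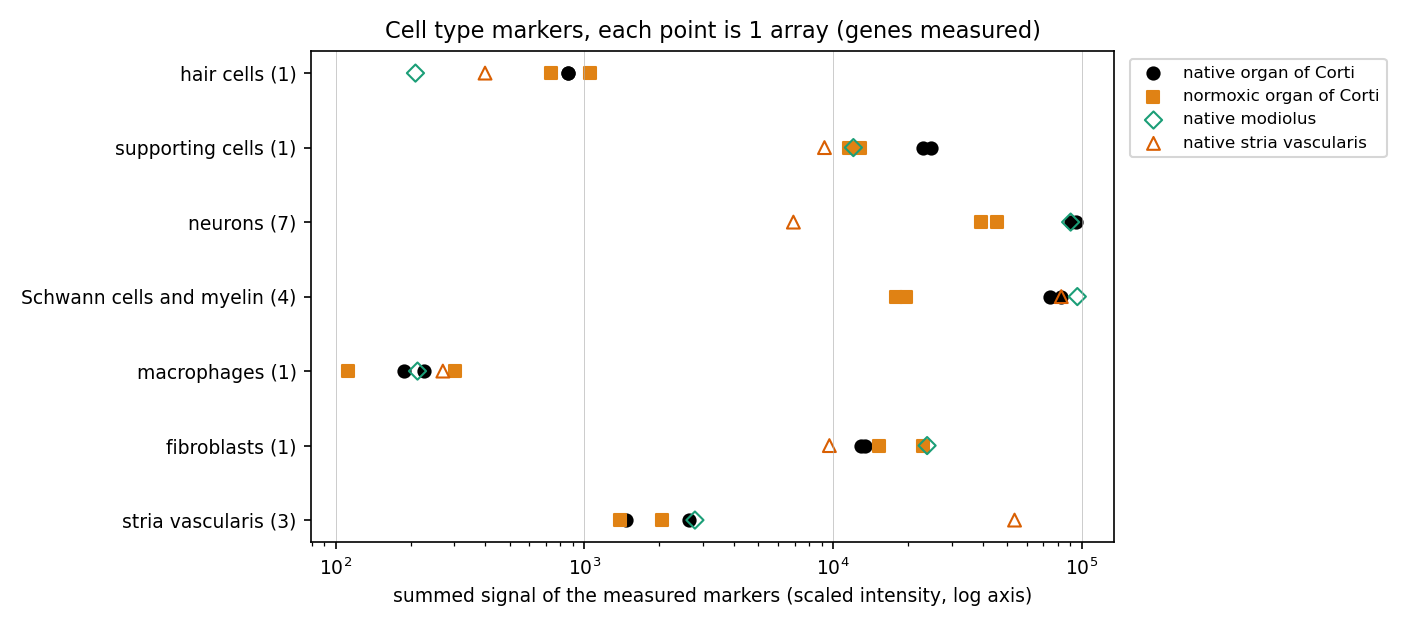
Summed signal of the measured cell type markers (scaled intensity, log axis), 1 point per array, in native organ of Corti, normoxic organ of Corti, native modiolus and native stria vascularis, with the number of genes measured in brackets. The Schwann cell and neuronal sums of the normoxic arrays lie below both native arrays, and the stria vascularis sum of the organ of Corti lies far below that of the stria vascularis.

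Technical measures also differed between the conditions. For GAPDH the 3′ probe set read over the 5′ probe set gave a ratio of 3.39 and 3.80 on the native arrays and 1.20 and 1.15 on the normoxic ones. For hexokinase the ratio was 13.4 and 4.49 against 2.25 and 2.55, and for beta-actin it was 2.29 and 1.67 against 2.16 and 1.96. The part of this difference in the results was not tested. Scan sessions were formed here from the scan dates, with a new session after a gap of more than 30 days. Both native arrays fell in session 1 and the normoxic arrays in sessions 2 and 3, so that session and culture cannot be told apart. The median signal was 735 to 804 on the 4 arrays. The background was 363 and 440 on the native arrays, 772 on normoxic array 1 and 237 on normoxic array 2. A condition counted as above background where 1 array exceeded its own. Among the falls given below, Kcna1, Ntrk2, Scn7a, Pde4c and the highest probe set of Nos2 read under background on normoxic array 1. Their fitted folds are therefore not exact.

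A linear model over all 16 arrays (limma, Benjamini-Hochberg adjusted p under 0.05) called 218 of 1263 probe sets, or 17.3%, different between normoxic and native organ of Corti. Of these 107, or 8.47% of all, were higher in culture and 111, or 8.79%, were lower. By the fitted difference 48 probe sets were more than 4-fold higher and 18 more than 4-fold lower, but 24 of the 48 and 9 of the 18 were not above background in at least 1 condition, where the fitted fold is not exact. With both conditions above background the counts were 24 and 9. Over 720 genes, each read by its probe set with the highest mean signal, 53 rose (7.36%) and 76 fell (10.6%), and the median log2 difference was -0.20. These shares are the background for the count of each list below. The lists and their members were chosen with earlier results of these data known. A count or median that departs from the background is therefore a description and no independent support. The arrays of the conditions did not overlap for 747 probe sets, or 59.1%, so that separation of 2 arrays from 2 is common in these data. Where it is given for a gene below, it only describes the values and adds no support to the 218 that passed. The count fell to 121 without native array 1 and to 136 without normoxic array 2. Among 74 named genes that passed, 43 also passed without any one of the 4 arrays: 27 of the 35 that rose and 16 of the 39 that fell.

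**Figure D2:**
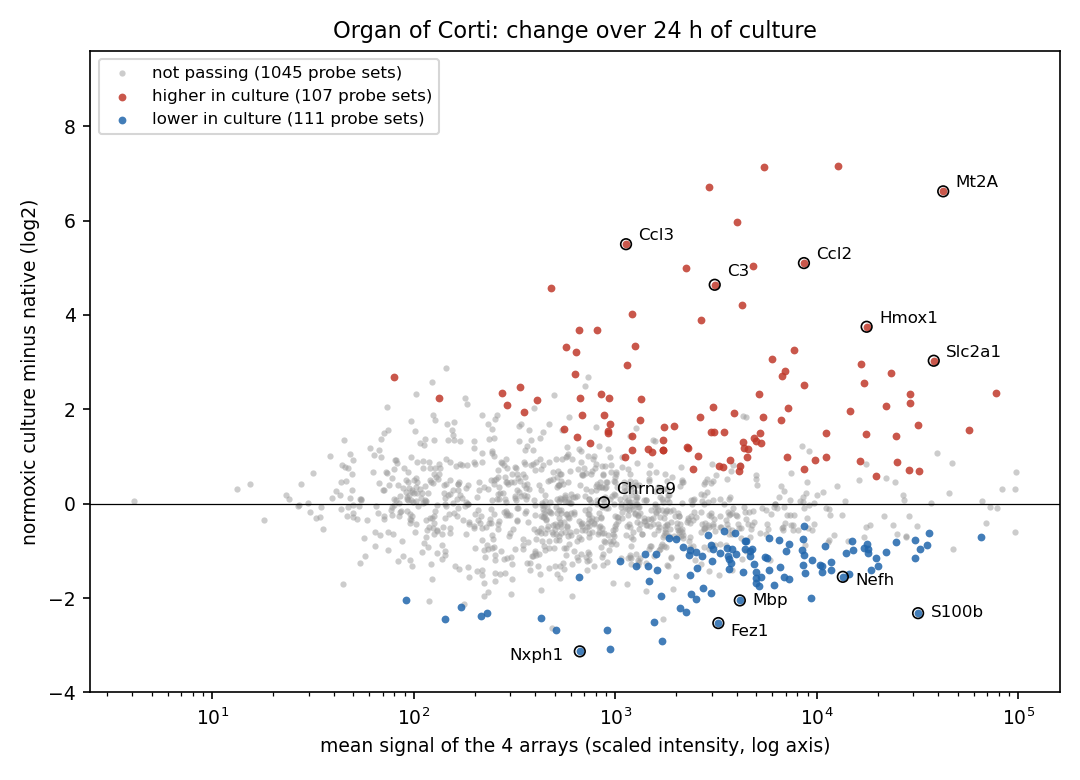
Log2 difference between normoxic and native organ of Corti against the mean signal of the 4 arrays (scaled intensity, log axis), 1 point per probe set. The highest point with a gene name is the other probe set of Hmox1, at 7.15, followed by a probe set of C3 at 6.72 and Mt2A at 6.62. Of these, Mt2A alone was above background in native tissue.

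Metallothioneins and antioxidant enzymes held the largest rise of a gene read by its highest probe set, that of Mt2A. Of 9 measured genes 5 rose, 4 did not pass and none fell, with a median log2 difference of 1.93 against -0.20 over all genes. Mt2A, a metallothionein that binds zinc and copper, gave a signal of 748 and 942 on the native arrays and 82998 and 84686 on the normoxic arrays. Both normoxic arrays lay far above both native ones, and the log2 difference was 6.62 ± 0.17 (SE), a 98.0-fold rise (adjusted p = 3.5e-11). Mt1, its close relative, went from 5762 and 6151 to 45251 and 36569, a rise of 2.77 ± 0.23 (adjusted p = 2.7e-06). Mt3, the metallothionein of neurons and glia, differed by -0.06 and did not pass.

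Hmox1, the inducible heme oxygenase that degrades heme to biliverdin, iron and carbon monoxide, gave 2666 and 2186 in native tissue and 35866 and 29890.0 in culture. It was higher on both normoxic arrays, by 3.75 ± 0.18 (adjusted p = 2.4e-08), and its other probe set rose at least 60.6-fold from a native level below background. At-least folds are lower bounds, with signals raised to the 95th percentile of the foreign-sequence controls of the array. Sod2, the mitochondrial superoxide dismutase, was 1548 and 1607 and then 17664 and 6106. Both normoxic values lay above the native ones but were far apart from each other, and the rise of 2.71 ± 0.65 (adjusted p = 0.012) was lost without native array 1, native array 2 or normoxic array 1 (adjusted p up to 0.13). Gsta1, a glutathione S-transferase, rose from 1589.5 and 1598 to 6034 and 6220.3, by 1.93 ± 0.22 (adjusted p = 5.8e-05). The cytosolic Sod1 and the extracellular Sod3 did not pass, at 0.02 and -0.87.

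The promoters of both metallothioneins are shown because their transcription is classically driven through metal response elements. The windows run from 250 bases before to 50 after the start of the gene (RefSeq, build GRCr8, minus strand), at chr19:10838659-10838958 for Mt2A and chr19:10832926-10833225 for Mt1. Capitals mark matches to TGCNCNC on either strand, a loose form of the metal response element. Mt2A holds 5 matches and Mt1 holds 7, none of which overlaps a match to the other motifs searched.
Mt2A promoter: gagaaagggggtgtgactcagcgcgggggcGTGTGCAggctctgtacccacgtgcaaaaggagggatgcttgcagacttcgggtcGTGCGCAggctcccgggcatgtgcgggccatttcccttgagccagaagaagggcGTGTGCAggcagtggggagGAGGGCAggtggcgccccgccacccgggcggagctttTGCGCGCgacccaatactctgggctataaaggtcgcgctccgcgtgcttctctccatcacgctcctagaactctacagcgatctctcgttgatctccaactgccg
Mt1 promoter: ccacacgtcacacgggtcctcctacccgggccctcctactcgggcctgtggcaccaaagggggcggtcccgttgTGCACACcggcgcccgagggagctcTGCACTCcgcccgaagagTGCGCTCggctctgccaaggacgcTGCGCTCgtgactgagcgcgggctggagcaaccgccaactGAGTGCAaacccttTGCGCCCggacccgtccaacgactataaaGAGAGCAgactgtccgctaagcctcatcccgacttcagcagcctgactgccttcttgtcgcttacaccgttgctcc
At least 1 match occurs in 50.1% of 27457 rat promoters of this length, at least 5 in 0.652% and at least 7 in 0.0983%. A match is a description of the letters and does not show that a factor binds there.

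Several chemokines rose from low native levels. Among 24 measured chemokines and cytokines 5 rose, 19 did not pass and none fell, with a median of 0.28. In 8 of the 24, neither condition was above background. Ccl3, a chemokine that draws monocytes and other leukocytes, was at 35.8 and 30.9 in native tissue, below background, and at 2448 and 1999 in culture. The normoxic arrays did not overlap the native ones, the rise was at least 5.36-fold, and the fitted log2 difference was 5.50 ± 0.34 (adjusted p = 1.9e-07). Ccl2, the main monocyte chemokine, rose from 476 and 449 to 20116 and 13447, by 5.10 ± 0.29 (adjusted p = 7.3e-08), and its other probe set by 4.21.

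Cxcl2, which attracts neutrophils, was not above background in native tissue, at 31.4 and 16.9, and reached 996 and 869, at least 2.28-fold higher (4.58 ± 0.50, adjusted p = 3.7e-05). Ccl20, a chemokine of epithelia that attracts dendritic cells and lymphocytes, rose from 413 and 246 to 5061 and 4873, by 3.89 ± 0.29 (adjusted p = 8.9e-07). The proinflammatory cytokine Il1b went from 87.1 and 70.7, below background, to 1516 and 960.2, at least 2.94-fold higher (3.69 ± 0.42, adjusted p = 6.1e-05). In all 3 genes both normoxic arrays were above both native arrays, and all 5 calls held without any one of the 4 arrays. Il6, a cytokine of the acute phase, was not above background in either condition, at 39.3 and 65.2 and 432 and 96.5, and did not pass (1.74 ± 0.83, adjusted p = 0.19). Tnf and Tgfb1 did not pass either, at 0.23 and -1.86. The single measured macrophage marker, Itgam, was 189 and 227 in native tissue and 303 and 112 in culture, below background in both.

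The promoters of Cxcl2 and Ccl20 are shown because they were the 2 of 11 risers with a promoter in the table that matched the NF-kB motif, whose factor controls many chemokine genes. The same windows were used, at chr14:17467206-17467505 (minus strand) for Cxcl2 and chr9:91836909-91837208 (plus strand) for Ccl20. Capitals mark the match, and in Cxcl2 they are 2 matches that overlap by all but 1 base.
Cxcl2 promoter: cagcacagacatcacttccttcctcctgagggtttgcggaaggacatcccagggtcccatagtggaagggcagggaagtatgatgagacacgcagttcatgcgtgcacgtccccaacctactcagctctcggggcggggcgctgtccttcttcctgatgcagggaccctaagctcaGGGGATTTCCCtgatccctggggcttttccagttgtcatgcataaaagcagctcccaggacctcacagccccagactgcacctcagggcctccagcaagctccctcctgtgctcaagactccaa
Ccl20 promoter: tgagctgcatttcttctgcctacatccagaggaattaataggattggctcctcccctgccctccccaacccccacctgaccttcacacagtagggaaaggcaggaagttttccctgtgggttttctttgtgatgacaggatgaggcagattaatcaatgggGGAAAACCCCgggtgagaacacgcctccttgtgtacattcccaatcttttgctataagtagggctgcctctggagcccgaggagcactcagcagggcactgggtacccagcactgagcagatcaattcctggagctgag
The NF-kB motif occurs in 7.6% of the 27457 promoters and in 1 of 11 promoters of the genes that fell. The AP-1 motif (TGANTCA) was found in 1 of 11 risers and 0 of 11 fallers, against 7.33% of all promoters. The hypoxia response element (ACGTG) was found in 6 of 11 and 2 of 11, against 19.7%, and an antioxidant response element in 7 and 5 of 11, against 42.8%. Of the 30 genes with the largest changes 22 were in the promoter table. Ccl3, Ccl2, Hmox1, Cck, Nos2, Kcna1, Ntrk2 and Pde4c were not.

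Few receptors and signalling genes of cytokines passed. Of 16 measured genes 2, or 12.5%, rose and none fell (median 0.09), against 7.36% rises and 10.6% falls over all genes. Stat3, which carries the signal of the interleukin-6 family to the nucleus, was 9401 and 9133 in native tissue and 25334 and 26549 in culture, higher on both arrays by 1.48 ± 0.21 (adjusted p = 0.00028), and its other 2 probe sets did not pass, at 0.37 and 1.11. Jak1, the kinase that activates it, went from 597 and 935 to 1652 and 1654 (1.13 ± 0.34, adjusted p = 0.036), and this call was lost without native array 1, normoxic array 1 or normoxic array 2 (adjusted p up to 0.29). It was also lost under 5 other settings.

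Of 9 genes of complement, acute phase and the immune cell surface 4 rose and none fell (median 0.91). Complement C3, the central component of the cascade, was 250.4 and 199.7 in native tissue, below background, and 6463 and 5528 in culture, at least 14.4-fold higher on arrays that did not overlap (4.64 ± 0.24, adjusted p = 3.5e-08). Icam1, an adhesion molecule for leukocytes, rose from 1747 and 1672 to 8311 and 8863, by 2.32 ± 0.17 (adjusted p = 8.4e-07). B2m, the light chain of class I histocompatibility molecules, rose from 11739 and 11047 to 22560.3 and 20205, by 0.91 ± 0.17 (adjusted p = 0.0021). Vcam1 and Sele, adhesion molecules of endothelium, did not pass, at -0.45 and -1.10.

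In the list of the HIF pathway, glucose and iron uptake 4 of 6 measured genes rose, Slc2a1, Hif1a, Tfrc and Igfbp3, and none fell (median 1.05). Slc2a1, the GLUT1 glucose transporter, was 9056 and 7599.7 in native tissue and 67756 and 67660.0 in culture. Both cultured values lay far above the native ones, by 3.03 ± 0.33 or 8.15-fold (adjusted p = 3.7e-05). The other measured glucose transporters, Slc2a3 and the insulin-dependent Slc2a4, did not pass, at 0.78 and -1.06. Hif1a, the oxygen-regulated transcription factor, rose from 2654 and 2246 to 5870.5 and 6328 by 1.31 ± 0.26 (adjusted p = 0.0041), in a normoxic culture.

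Other genes of iron handling passed as well. Tfrc, the receptor that takes up transferrin-bound iron, was 259 and 232 in native tissue, below background, and 1487 and 2606 in culture, at least 4.78-fold higher (2.93 ± 0.30, adjusted p = 2.4e-05). Tf, transferrin itself, rose from 2149 and 2584 to 7822 and 9157, by 1.84 ± 0.23 (adjusted p = 0.00012), and its other 2 probe sets rose too, by 1.28 and 2.21. Aco1, the cytosolic aconitase that doubles as an iron sensor, fell from 7087 and 7857 to 2258 and 2755 (-1.57 ± 0.24, adjusted p = 0.00066). No array of one condition overlapped the other for these 3 genes.

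Transcription factors of the immediate early and stress response rose in 6 of 12 measured cases, and none fell (median 1.13). Cebpb, a factor of acute phase and cytokine genes, was 1549 and 1333 in native tissue and 13088 and 14837 in culture, a rise of 3.26 ± 0.20 (adjusted p = 1.7e-07). Junb went from 942 and 1454 to 4930.3 and 4882 and Jun from 985 and 1321 to 3986 and 4274, rises of 2.05 ± 0.26 and 1.84 ± 0.24 (adjusted p = 0.00013 and 0.00017). Both are subunits of the AP-1 factor, and the conditions did not overlap for either. Their partner Fos was already at 4888 and 7654 in native tissue and at 6840.1 and 7977 in culture, where the arrays overlapped and the test did not pass (0.27 ± 0.21, adjusted p = 0.44). Its other 2 probe sets rose, by 1.53 and 1.64. Fosl1 (2.35, from a native level below background), Fosl2 (1.54) and Crem (1.14), further factors that act on stress and cAMP response genes, also rose. The calls for Fosl1 and Fosl2 were lost without native array 1 or normoxic array 2 (adjusted p up to 0.099 and 0.081), and that of Fosl1 also with signals raised to background. The Crem call was lost without native array 1 or normoxic array 1 (adjusted p up to 0.09).

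Heat shock genes split. Of 7 measured, 2 rose (28.6%) and 1 fell (14.3%), against 7.36% and 10.6% over all genes (median 0.04). Hspa1a, the inducible HSP70, went from 2514 and 2594 to 15895 and 13481 (2.51 ± 0.34, adjusted p = 0.00022), and its other probe set rose by 3.07. Hspb1, the small heat shock protein HSP27, went from 5340.0 and 5994 to 20548 and 12576 (1.5 ± 0.32, adjusted p = 0.0058), and 1 of its other 2 probe sets did not move with it, at 0.01. Hspd1, the mitochondrial chaperonin, fell from 27547 and 35507 to 19236 and 16238 (-0.82 ± 0.18, adjusted p = 0.0068). In each of the 3 the normoxic arrays did not overlap the native ones. The Hspb1 call was lost without native array 1 or normoxic array 1 (adjusted p up to 0.069), and the Hspd1 call was lost without native array 2 or normoxic array 2 (adjusted p up to 0.088).

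Among 6 proteases, inhibitors and matrix genes 3 rose and none fell (median 0.31). Serpine2, an inhibitor of thrombin and plasminogen activators made by glia, rose from 7193 and 9711 to 33044 and 37966, by 2.08 ± 0.22 (adjusted p = 3.7e-05). Enpp2, autotaxin, which makes lysophosphatidic acid, went from 2656 and 2449 to 5039.7 and 4705 (0.93 ± 0.17, adjusted p = 0.0021), with its other probe set at 0.45, not passing. Plat, the tissue plasminogen activator, went from 6768 and 6186 to 10172 and 11477 (0.74 ± 0.17, adjusted p = 0.01), a call that was lost without native array 2 or normoxic array 2 (adjusted p up to 0.089). Ptgs2, the inducible cyclooxygenase of prostaglandin synthesis, rose from 496 and 698 to 2042 and 2056, by 1.77 ± 0.30 (adjusted p = 0.0015), above both native arrays on both normoxic arrays. The inducible nitric oxide synthase Nos2 had no settled direction: its highest probe set fell by 2.92 on the log2 scale (adjusted p = 0.0018), another rose by 1.49 (adjusted p = 0.0043), and the other 5 did not pass.

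**Figure D3:**
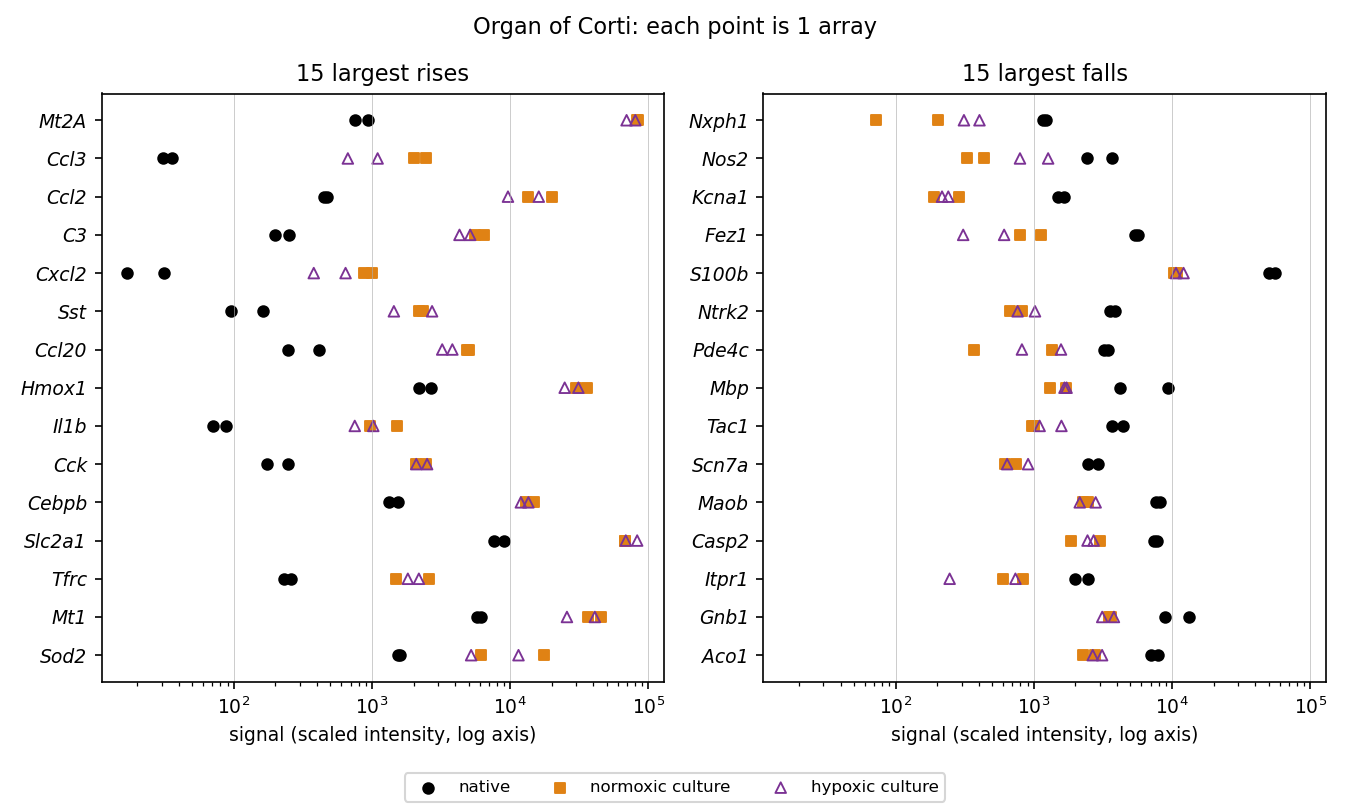
Signal on every organ of Corti array (scaled intensity, log axis) for the 15 genes with the largest rises and the 15 with the largest falls, 1 point per array, 2 arrays each for native tissue, normoxic culture and hypoxic culture. Native and normoxic points do not overlap for any of the 30 genes, which were picked as passing changes of this same comparison. Over all probe sets the arrays did not overlap for 59.1%. Mt2A goes from 748 and 942 to 82998 and 84686.

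The 15 largest changes in each direction included 3 genes of peptide transmitters. Sst, somatostatin, was 161 and 95.6 in native tissue, below background, and 2200.1 and 2352 in culture, at least 5.51-fold higher (4.03 ± 0.48, adjusted p = 7.6e-05). Its other probe set did not pass, at 0.86. Cck, cholecystokinin, went from 247 and 174, below background, to 2467 and 2089, at least 5.50-fold higher (3.35 ± 0.42, adjusted p = 0.00012). Tac1, the precursor of substance P, went the other way, from 4428 and 3688 to 1009 and 973 (-2.01 ± 0.31, adjusted p = 0.00066), while its other probe set did not pass, at -0.44. The conditions were apart on all arrays for the 3 genes.

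None of the 4 measured genes of the hair cell list passed, and their median was -0.09. Chrna9, of the efferent receptor, was 860.2 and 858 in native tissue and 1049 and 736 in culture, where the arrays overlapped (0.03 ± 0.76, adjusted p = 0.99). Atp2b2, the calcium pump of the hair bundle, was 2236 and 2145 and then 1357 and 1016. Its arrays did not overlap, but the difference did not pass (-0.89 ± 0.53, adjusted p = 0.31), and its other 3 probe sets gave -0.85, -0.51 and -0.69. Cacna1d, the calcium channel of hair cell synapses, and Kcnma1, the BK potassium channel, overlapped between conditions, at -0.22 ± 0.72 and 0.35 ± 0.52 (adjusted p = 0.89 and 0.72). The standard errors of 0.52 to 0.76 on the log2 scale limit what could be detected in these 4 genes.

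Genes of the supporting and sensory epithelium list moved in both directions. Of 8 measured genes 2 rose (25%) and 1 fell (12.5%), against 7.36% and 10.6% over all genes (median 0.66). Of the 8, only Slc1a3 was among the supporting cell markers, so that the rises are not assigned to a cell type. Glul, glutamine synthetase, which turns glutamate into glutamine, went from 10109 and 11179.5 to 49239.9 and 44934 (2.14 ± 0.21, adjusted p = 1.2e-05), and its other 3 probe sets rose by 0.88, 2.81 and 1.62. Igfbp5, a binding protein of insulin-like growth factors, rose from 2612 and 3453 to 10913 and 9663, by 1.77 ± 0.21 (adjusted p = 8.6e-05), and its other probe set was at 1.86 without passing. Slc1a3, the glutamate transporter GLAST of supporting cells and glia, fell from 23021 and 24634 to 12805 and 11528 (-0.97 ± 0.22, adjusted p = 0.0092). Both act on the same transmitter, and in neither gene did the conditions overlap. The Slc1a3 call was lost without native array 2 or normoxic array 2 (adjusted p up to 0.072), and its other 3 probe sets did not pass.

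The other genes of the supporting and sensory epithelium list did not pass in the fit used here. Gja1, Igf2 and Hes1 did pass with the replicate number as a block (adjusted p = 0.03, 0.0059 and 0.043). Igf2 also passed with signals raised to background and in fits to only the 4 or the 6 organ of Corti arrays, and Hes1 with median centring. Gja1, connexin 43 of gap junctions, was 314 and 222 in native tissue, below background, and 686 and 954 in culture (1.56 ± 0.55, adjusted p = 0.076). Igf2, a growth factor, was 31164 and 34820.1 and then 50418 and 71405 (0.86 ± 0.31, adjusted p = 0.079), and Hes1, a target of Notch, 7390.5 and 8390.4 and then 5527 and 5469 (-0.52 ± 0.17, adjusted p = 0.063). In all 3 the arrays of the conditions were apart, but the other probe set of Hes1 and 4 of the other 5 of Igf2 overlapped. Fgfr1 and Igfbp2 overlapped, at 0.45 and 0.22, although the other probe set of Igfbp2 rose from 9265 and 9963 to 43221 and 53255, by 2.32 (adjusted p = 0.0001).

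Schwann cell and myelin genes had the lowest median of the lists with 4 or more measured genes. Of 7 measured genes 4 fell and none rose, with a median of -1.40 against -0.20 over all genes. S100b, a calcium-binding protein of glia and of some supporting cells, gave 50647 and 55291 in native tissue and 10395 and 10783 in culture. Both normoxic arrays lay far below both native ones, and the difference was -2.32 ± 0.17 (4.99-fold lower, adjusted p = 8.8e-07). Its other probe set did not pass, at -1.49. Mbp, myelin basic protein, fell from 4212 and 9322, which are themselves far apart, to 1722 and 1317 (-2.05 ± 0.37, adjusted p = 0.0021).

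Cnp, a myelin enzyme, went from 7754 and 9054 to 2907 and 3437 (-1.40 ± 0.21, adjusted p = 0.00058). Sox10, the transcription factor of the glial lineage, went from 11601 and 8925 to 2936 and 4097 (-1.55 ± 0.34, adjusted p = 0.0067), a call that was lost without native array 1 or normoxic array 1 (adjusted p up to 0.07). All 4 genes were lower on both normoxic arrays than on either native array. Mag and Mog, myelin surface proteins, were at -0.52 and -0.53 and did not pass. Ngfr, the p75 neurotrophin receptor, overlapped between the conditions at -0.01, while its other probe set fell by 0.97 (adjusted p = 0.0082).

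Neuronal cytoskeleton and axon genes fell in 6 of 14 measured cases, and none rose (median -0.71). Fez1, which links cargo to kinesin in axons, went from 5634 and 5417 in native tissue to 1122 and 793 in culture (-2.53 ± 0.56, adjusted p = 0.0071). Nefh, the heavy neurofilament chain, went from 18916 and 21130.3 to 7533 and 6206 (-1.55 ± 0.27, adjusted p = 0.0017). The light chain Nefl went from 17211 and 16741 to 6943 and 5830.0 (-1.41 ± 0.34, adjusted p = 0.011). By these probe sets every cultured value was below every native one. The other probe sets of Nefh and Nefl did not pass, at -1.16 and, with overlapping arrays, -0.13, nor did the medium chain Nefm, at -0.76.

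Gap43, a protein of growing axons, fell from 8414 and 6155 to 2789 and 2508 (-1.44 ± 0.26, adjusted p = 0.002). The microtubule proteins Mapt and Map1a fell by 1.29 and 1.10 on the log2 scale, each by the highest of its 3 and 2 probe sets. The others are not given. Map2, Map1b and Eno2 did not pass, at -0.35, 0.34 and 0.08. The 7 neuronal markers together summed to between 90549 and 95048 in native tissue and between 39131 and 45497 after culture. Without single arrays the count of falls in this list was between 3 and 6. The Nefl call was lost without native array 1, native array 2 or normoxic array 2 (adjusted p up to 0.084), the Fez1 call was lost without native array 1 or normoxic array 2 (adjusted p up to 0.062), and the Mapt call was lost without native array 1 (adjusted p up to 0.053).

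Synaptic genes gave 2 rises and 2 falls among 28 (median -0.33), against 7.36% that rose and 10.6% that fell over all genes, so that the counts are near the background. Nxph1, a ligand of neurexins, fell from 1169.9 and 1219 to 201 and 71.6, where it was not above background, at least 2.71-fold lower (-3.13 ± 0.74, adjusted p = 0.01). With signals raised to background this call was lost. Syn1, a synaptic vesicle protein, went from 3481 and 3830.2 to 1402 and 1406 (-1.37 ± 0.35, adjusted p = 0.017). Stx4 and Snap23, which mediate membrane fusion in many cell types outside synapses, rose by 1.19 ± 0.31 and 1.14 ± 0.28 (adjusted p = 0.016 and 0.012). The neuronal Snap25 and Stx1a did not pass, at -0.87 and -0.01. None of the 4 calls held under every omission: those of Syn1 and Stx4 were lost without any one of the 4 arrays (adjusted p up to 0.10 and 0.11). The Nxph1 call was lost without native array 1, native array 2 or normoxic array 2 (adjusted p up to 0.098), and the Snap23 call was lost without native array 1, native array 2 or normoxic array 2 (adjusted p up to 0.089).

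Ion channel genes fell at about the share of all genes, and none rose. Of 40 potassium channel genes 3, or 7.5%, fell and none rose (median -0.33), against 10.6% falls and 7.36% rises over all genes. Kcna1, a channel of axons, went from 1499.9 and 1642 to 188 and 289 (-2.67 ± 0.59, adjusted p = 0.007), a call that was lost without normoxic array 1 (adjusted p up to 0.057). Its other probe set was at -1.96 without passing. Kcnj1, an inward rectifier, and Kcnh2, of the ERG family, fell by 1.41 and 0.87 on the log2 scale (adjusted p = 0.013 and 0.026). Both of those calls were lost without any one of the 4 arrays (adjusted p up to 0.094 and 0.16), and no other probe set of either gene passed.

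Of 30 sodium and calcium channel genes 4, or 13.3%, fell and none rose (median -0.35). These were Itpr1, a calcium release channel, at -1.63 ± 0.50 (adjusted p = 0.043), the chloride transporter Clcn3 at -1.07 ± 0.26 (adjusted p = 0.013), and Cacna2d1, a calcium channel subunit, at -1.07 ± 0.32 (adjusted p = 0.036). The 3 calls were lost without any one of the 4 arrays, with an adjusted p of up to 0.21, 0.10 and 0.21, and none of the other 4 probe sets of Itpr1 passed. The other, Scn10a, passed at -2.19 but was not above background in either condition, and no fold is given. Scn7a, a sodium channel of glia and some neurons that was in none of the lists, fell from 2455 and 2905 to 736 and 619.5 (-1.96 ± 0.58, adjusted p = 0.034). Its call was lost without any one of the 4 arrays (adjusted p up to 0.17), although its other probe set also fell, by 1.32.

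Pumps and exchangers fell in 4 of 12 measured cases, and none rose (median -0.66). Atp2a2, the SERCA2 pump that returns calcium to the endoplasmic reticulum, went from 21649.8 and 23964 to 12600.2 and 12556 (-0.86 ± 0.15, adjusted p = 0.0017), below both native arrays on both normoxic arrays, with its other probe set at -0.61, not passing. Atp1b2, a beta subunit of the sodium pump, went from 6469 and 7308 to 2309.5 and 3476 (-1.27 ± 0.33, adjusted p = 0.018), and its other probe set was at 0.14. The Atp1b2 call was lost without native array 1, native array 2 or normoxic array 1 (adjusted p up to 0.16). Atp2a3 and the exchanger Slc8a2 fell by 0.91 and 0.75 on the log2 scale, and both calls were lost without any one of the 4 arrays (adjusted p up to 0.28 and 0.17). The other 2 measured sodium pump beta subunits, Atp1b1 and Atp1b3, did not pass, at -0.61 and -0.25.

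Of 29 glutamate genes, 1 rose (Glul) and 2 fell, Slc1a3 and the kainate receptor subunit Grik2 (median -0.50), no more than the share over all genes. Grik2 was not above background in either condition, and with signals raised to background its difference was 0.10. Among 8 neurotrophin and GDNF family genes 1, or 12.5%, fell (median -0.36), near the 10.6% over all genes. Ntrk2, the receptor of brain-derived neurotrophic factor, went from 3862 and 3565 to 676 and 819 (-2.29 ± 0.65, adjusted p = 0.028), with no overlap, but its call was lost without any one of the 4 arrays (adjusted p up to 0.14). Its ligand Bdnf overlapped between conditions (0.08 ± 0.30, adjusted p = 0.9), and 1 of its other 6 probe sets rose, by 1.58 (adjusted p = 0.049). Ntf3, the neurotrophin that supports cochlear neurons beside Bdnf, was 6144 and 5409 and then 3623 and 3463, lower on both cultured arrays without passing (-0.70 ± 0.35, adjusted p = 0.22). By this probe set Ntf3 did pass in fits to only the 4 or the 6 organ of Corti arrays. Its other probe set was at 0.63.

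Growth factor families gave 3 rises (12.5%) and 2 falls (8.33%) among 24 genes (median 0.24). Over all genes the shares were 7.36% and 10.6%, so that the counts are near the background. Besides Igfbp5, these were rises of Igfbp3, another binding protein of insulin-like growth factors (0.69 ± 0.19, adjusted p = 0.021), and of Igf1 itself (0.58 ± 0.17, adjusted p = 0.029). Igfbp3 and Igf1 had 2 and 5 probe sets, of which only that with the highest mean signal is given for each. Pdgfa, a mitogen, went from 13361 and 17682 to 4504 and 7059 (-1.44 ± 0.38, adjusted p = 0.018), and the receptor Fgfr4 from 12262 and 11923 to 4877 and 4962 (-1.29 ± 0.26, adjusted p = 0.0045). All 3 probe sets of Fgfr4 fell, while the other 2 of Pdgfa were at 0.08 and 0.53. Of these calls only that of Fgfr4 and that of Igfbp5 held without any one of the 4 arrays. For Igfbp3, Igf1 and Pdgfa the adjusted p reached 0.16, 0.19 and 0.16: it was lost without native array 1, native array 2 or normoxic array 2 for Igfbp3, it was lost without any one of the 4 arrays for Igf1 and it was lost without native array 1, native array 2 or normoxic array 1 for Pdgfa.

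Of 12 cell death genes 4 passed as lower by their highest probe set and none as higher (median -0.30), but other probe sets of these genes did not bear out a common direction. Leaving out Bax, whose probe sets passed in opposite directions, 3 of 11 fell. Casp2, an initiator caspase, went from 7405 and 7773 to 1847 and 3012 (-1.68 ± 0.31, adjusted p = 0.0021), while its other 2 probe sets were at 0.45 and 0.16. Bad, which opposes the survival proteins of the Bcl2 family, went from 22864 and 19899.5 to 8089.6 and 7154 (-1.49 ± 0.20, adjusted p = 0.00022), and its other probe set did not pass, at -0.28. Bax, which permeabilises mitochondria, had no settled direction: 1 probe set fell from 31519 and 26307 to 11555 and 11385 (-1.33 ± 0.18, adjusted p = 0.00025). Its other 2 rose, from 2255 and 2505 to 4512 and 3771 (0.79, adjusted p = 0.01) and from 562 and 740 to 1872 and 1664 (1.43, adjusted p = 0.002). Casp6, an effector caspase, went from 5230.0 and 6046 to 2871 and 3625 (-0.80 ± 0.22, adjusted p = 0.024), a call that was lost without native array 1, native array 2 or normoxic array 1 (adjusted p up to 0.18). Its other probe set did not pass, at -0.60. Bcl2, the survival gene of the family, and Casp1 did not pass, both at -0.13.

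Markers of other cells showed few changes. Nes, of neural progenitors and some mesenchyme, fell from 4596 and 4767 to 2420.4 and 2476 (-0.93 ± 0.17, adjusted p = 0.0021), the 1 call among 4 fibroblast and mesenchyme genes, whose other members Vim, Pdgfra and Pdgfrb were at -0.09, 0.51 and 0.11. Of 5 stria vascularis genes 1 fell, Atp1b2. Neither measured blood vessel gene passed: Edn1 overlapped between conditions (-0.11 ± 0.54, adjusted p = 0.92), and Nos3 was not above background in either. A further 3 genes stood among the largest falls. Maob, which degrades amines, went from 7605 and 8230.1 to 2457 and 2262 (-1.74 ± 0.26, adjusted p = 0.00058). Gnb1, a G protein subunit, went from 13171 and 8940.5 to 3646 and 3477 (-1.60 ± 0.31, adjusted p = 0.003), and 2 of its other 4 probe sets fell. The phosphodiesterase Pde4c went from 3446 and 3232 to 369 and 1347 (-2.21 ± 0.49, adjusted p = 0.0072), a call that was lost without native array 1 or normoxic array 1 (adjusted p up to 0.063).

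**Figure D4:**
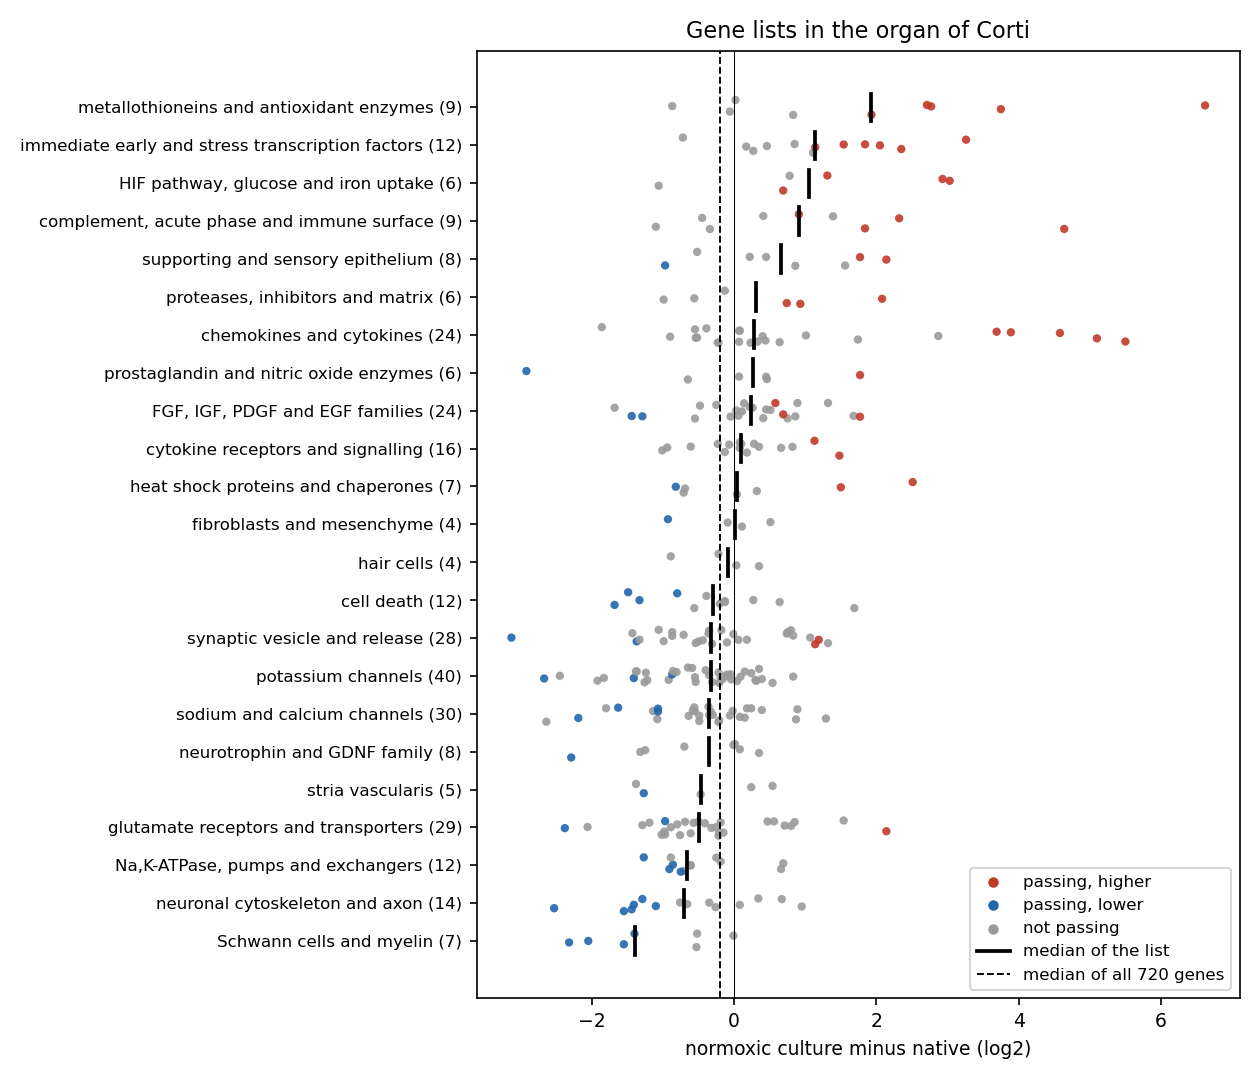
Log2 difference between normoxic and native organ of Corti for every measured gene of the lists with 4 or more genes, 1 point per gene, coloured by whether it passed, with the median of each list and that of all 720 genes (-0.20, dashed). The lists run from metallothioneins and antioxidant enzymes (median 1.93) to Schwann cells and myelin (-1.40).

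Different probe sets of a gene did not always move together. The 69 passing genes with more than 1 probe set had 115 others, of which 31 passed in the same direction, 4 in the opposite direction and 80 did not pass. Of those 80, 50 had the same sign. The 3 genes with opposite calls were Bax, Nos2 and Pja2. Where the other probe sets of a gene are not mentioned, only that with the highest mean signal is given. Among such genes are Il1b, Icam1, Gsta1, Cebpb, Crem, Ntrk2 and Nes, with 2 probe sets each.

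Whether the culture response was particular to the organ of Corti was tested as its change minus the mean change of modiolus and stria vascularis. This difference passed for 2 of 1263 probe sets (0.158%), while 115 had an unadjusted p under 0.05. Native modiolus and native stria vascularis are 1 array each, whose spread was taken to be that of the replicated groups. Mt2A rose by 6.62 here, by 5.72 ± 0.20 in the modiolus and by 4.69 ± 0.20 in the stria vascularis, so that the organ of Corti exceeded the mean of the others by 1.41 (limma, adjusted p = 0.019). Tf rose by 1.84 in the organ of Corti, was at -1.26 ± 0.28 in the modiolus and at 0.98 ± 0.28 in the stria vascularis, a difference of 1.98 (adjusted p = 0.019). The other probe sets of Tf did not pass this test of the difference. The calls of Mt2A and Tf depended on the arrays, the scaling and the variance model. They ended with median centring (adjusted p = 0.053) and without the variance trend (0.16), and that of Mt2A with quantile normalization (0.058). They were also lost without native array 1 (adjusted p = 0.16), normoxic array 1 (0.14) or normoxic array 2 (0.13) of the organ of Corti, without normoxic array 1 of the modiolus (0.053) and without normoxic array 1 (0.067) or 2 (0.068) of the stria vascularis.

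For the other named genes a difference from the other regions was not shown, and their changes are given side by side. Ccl2 rose by 5.10 ± 0.29 in the organ of Corti and was at 5.86 ± 0.35 and 6.20 ± 0.35 in modiolus and stria vascularis. Cck was at 3.35 ± 0.42, -0.47 ± 0.51 and 3.28 ± 0.51, and Slc2a1 at 3.03 ± 0.33, 0.80 ± 0.40 and 1.75 ± 0.40. Among the falls, S100b was at -2.32 ± 0.17, -1.93 ± 0.21 and -3.18 ± 0.21, Nefh at -1.55 ± 0.27, -5.11 ± 0.33 and 0.83 ± 0.33, and Gap43 at -1.44 ± 0.26, 0.97 ± 0.32 and -0.59 ± 0.32. The test of the organ of Corti against the mean of the other regions did not pass for Cck, Nefh and Gap43 (adjusted p = 0.19, 0.76 and 0.098). Nefh was not above background in native stria vascularis and Cck was not in cultured modiolus, so that no direction is read from those values. The GAPDH ratio also differed between native and normoxic tissue in the other regions, at 4.76 against 1.23 and 1.14 in the modiolus and 3.84 against 1.26 and 1.22 in the stria vascularis.

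**Figure D5:**
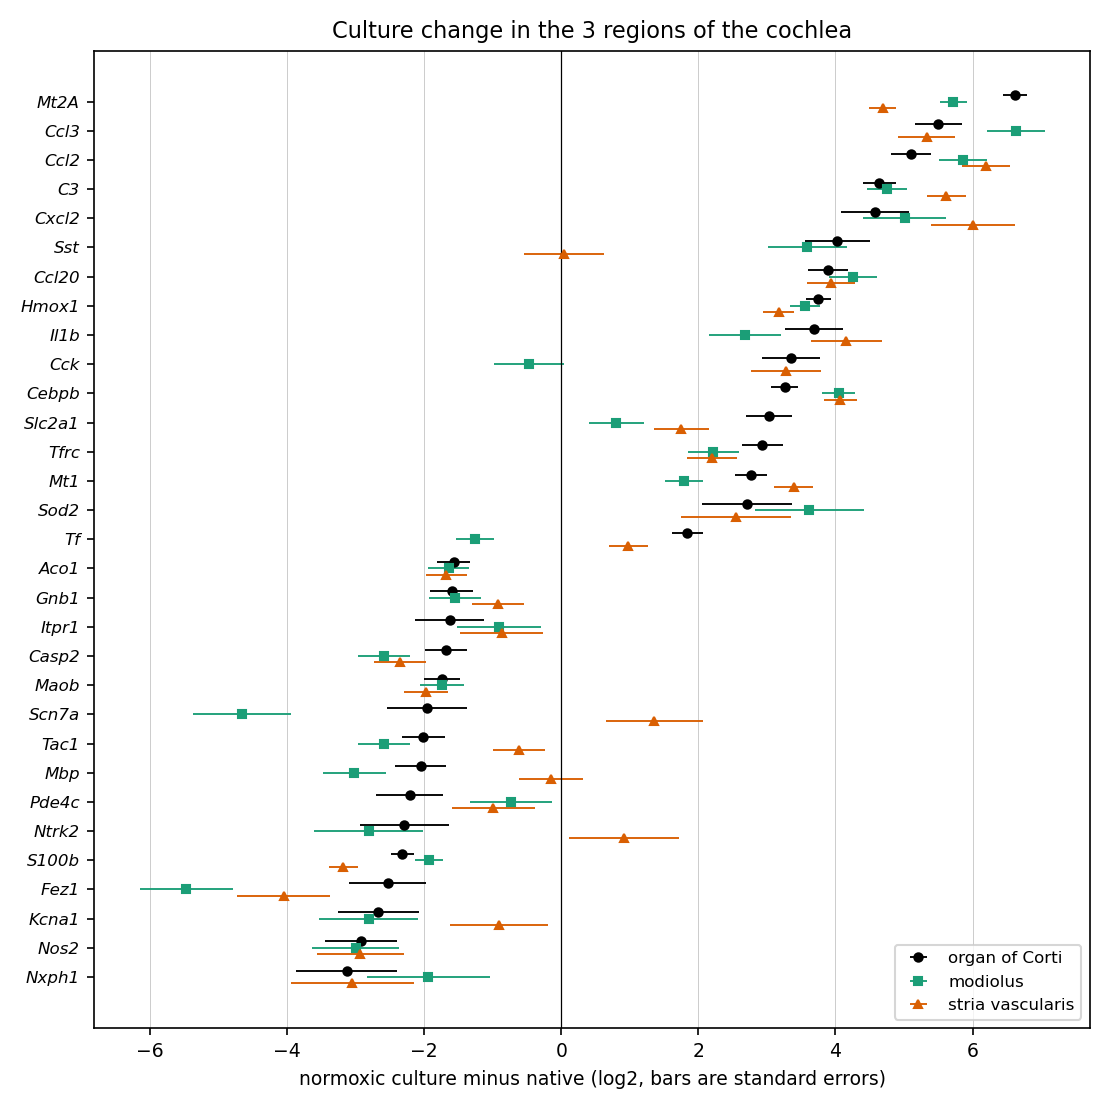
Culture change (log2, with standard errors) in each of the 3 regions, organ of Corti first, for the 30 genes with the largest changes in the organ of Corti and for Tf. The change minus the mean of the other regions passed for Mt2A and Tf.

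Organ of Corti cultured with 5 h of hypoxia, which began 3 h after the onset of culture, gave a second set of 2 cultured arrays. It was set against the same native arrays, so that the values are given side by side only. Mt2A read 80521 and 69594 on the hypoxic arrays beside 82998 and 84686 on the normoxic ones, Hmox1 31184 and 24809.8 beside 35866 and 29890.0, and Slc2a1 83026 and 68691 beside 67756 and 67660.0. S100b read 12118 and 10679 beside 10395 and 10783 and Nefh 3903 and 3885 beside 7533 and 6206. In these 5 genes, all of which passed in the normoxic comparison, every cultured array of either kind lay on the same side of the native arrays. No count over all passing genes is given, and it did not hold for each of them. Tac3 read 189.5 and 587 on the hypoxic arrays beside 191 and 93.6 in native tissue. Scn10a, not above background in native or normoxic tissue, read 378 and 261 beside 278 and 298.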

How the data were processed

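Total RNA from pooled tissue had been hybridised to 16 one-colour Affymetrix arrays, 1 column per array. The authors deposited linear intensity values per probe set; the tool that summarised the probes is not given in the sources used here. From the values, each array had been scaled to a 2% trimmed mean of 2500. Scanner run records, of chip settings and other values per the file headers, were read for chip type and scan date. Dates were grouped into scan sessions where the gap between them exceeded 30 days. Of 1322 probe sets 59 controls were left out and 1263 tested; 1137 had 1 gene symbol in the platform annotation, 8 several and 118 none, and 1132 were matched to RefSeq by gene number. A gene was read by its probe set with the highest mean on the 4 organ of Corti arrays. The background of an array was the 95th percentile of 23 foreign-sequence controls, and a gene was called not above background in a condition where neither array exceeded it.

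Values were tested as log2(signal + 16) with limma 3.58.1 (R 4.3.3, statmod 1.5.0) over 9 groups, with a variance trend and 7 residual degrees of freedom, and p-values were adjusted by Benjamini-Hochberg over all probe sets with a threshold of 0.05. The fit was also run on simulated data with independent noise. These held no difference in scan session or 3′ to 5′ ratio, so that they cannot speak to such differences here. The number of arrays limits the precision. Equal replicate numbers were not used to pair arrays.

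The genes named were the 15 largest passing changes each way, up to 4 passing members of each list (or the 2 brightest where none passed), all hair and supporting cell members, up to 5 passing differences from the other regions each way, and a few fixed genes. Members and lists were chosen with earlier results of these data known. Other list members named as not passing, and Gsta1, Fosl2, Crem, Mapt, Map1a, Igf1 and Pja2, were named after their values were seen. Alternatives covered scaling, pseudocount, background, variance model, arrays in the fit, scan session, the replicate block and single omitted arrays.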

Additional observations from a re-analysis of the deposited data

Results flagged for a closer look

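For Mt2A and Tf the culture change of the organ of Corti differed from the mean change of modiolus and stria vascularis by a test of the difference itself (limma, adjusted p = 0.019 for each). The difference was 1.41 on the log2 scale for Mt2A and 1.98 for Tf. The other probe sets of Tf did not pass this test. Native modiolus and native stria vascularis are 1 array each. Both calls were lost under 6 omissions of single arrays, with median centring and without the variance trend. Both normoxic organ of Corti arrays lay above both native ones in either gene, which does not bear on the difference between regions.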

How the results depend on the processing

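The count of probe sets that passed for the organ of Corti, normoxic culture minus native, was 218, and between 121 and 155 when single organ of Corti arrays were left out. It lay between 176 and 268 under all other alternatives; with the replicate block it was 262 and included all 218. Deviations of arrays with the same number correlated at 0.05 between native and normoxic organ of Corti and at -0.01 to 0.28 over all pairs of groups; replicate 1 of each cultured group was scanned in session 2 and replicate 2 in session 3. As not every correlation was over 0.1, the numbers were not taken as pairs, and the block changed the call of Hes1, Gja1 and Igf2 among the named genes. The count of differences from the other regions was 2, but 0 with median centring, 0 without the variance trend, 1 with quantile normalization, 6 with the replicate block and 8 with signals raised to background, an alternative chosen after seeing the data. Leaving out single arrays gave 0 to 3. With signals raised to background the changes of Scn10a and Grik2 turned from a fall to 0.10 each (adjusted p = 0.92); neither was above background in either condition, so that raised signals reflect the background of each array. Of 91 named genes, 21 to 27 lost their call when 1 array was left out, and 0 to 10 under the other alternatives. Only 74 of the 91 named genes had a call to lose. Native tissue below background limits folds of low genes to lower bounds.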

Other observations

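Several genes outside the lists also changed in the cultured organ of Corti. They were chosen after their values were seen. Mif, Irf1 and Penk had 2 probe sets each, of which only that with the highest mean signal is given. Mif, macrophage migration inhibitory factor, gave 24130.4 and 26621 in native tissue and 127465 and 129955 in culture, a rise of 2.34 ± 0.15 (SE) on the log2 scale (limma, adjusted p = 2.6e-07). Both normoxic arrays lay far above both native ones. Irf1, a transcription factor of the interferon response, rose from 2668 and 2981 to 7079 and 5564, by 1.15 ± 0.23 (adjusted p = 0.0037). Penk, the precursor of enkephalins, rose from 1117 and 830.5 to 2768 and 2204, by 1.34 ± 0.26 (adjusted p = 0.0033). Of other peptide genes, Tac3 (2.19, adjusted p = 0.033) and Crh (-2.44, adjusted p = 0.047) also passed, but both calls were lost without any one of the 4 arrays (adjusted p up to 0.22 and 0.19), Tac3 was not above background in native tissue and Crh in neither condition. Npy, Gal and Oxt overlapped between conditions and did not pass, at 0.44, 0.45 and 0.50. Calcb, Avp, Nmu and Pdyn were apart on all arrays but did not pass, at 2.31, -0.53, -0.64 and -0.75.

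A further 3 genes, receptors picked from the falls after their values were seen, with no count over all such receptors, were Thra, Rara and Nr1h2. Thra, a thyroid hormone receptor, went from 16248 and 16851 to 7537 and 6452 (-1.24 ± 0.16, adjusted p = 0.00012). Rara, a retinoic acid receptor, went from 25423 and 27910 to 8148 and 12471 (-1.40 ± 0.30, adjusted p = 0.0067). Nr1h2, a receptor for oxysterols, went from 14798 and 13879 to 7418 and 7928 (-0.90 ± 0.15, adjusted p = 0.0015). In each the normoxic arrays lay below both native arrays, but the Rara call was lost without normoxic array 1 (adjusted p = 0.074). Ckb, the brain creatine kinase, fell from 42601 and 43646 to 23193 and 20814 (-0.97 ± 0.16, adjusted p = 0.0012). Thra, Rara, Nr1h2 and Ckb had 4, 3, 2 and 2 probe sets, of which only that with the highest mean signal is given for each.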
